A study of Mus musculus with 54 samples.

Results

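Serine synthesis, the folate cycle that uses serine carbon, asparagine and proline synthesis, amino acid uptake and the charging of transfer RNA were followed in group 2 innate lymphoid cells (ILC2s) of the mouse small intestine. The set held 38 of the 10990 genes listed in either RNA table. It was formed from named enzymes, transporters and regulators, plus every cytosolic aminoacyl-tRNA synthetase whose symbol matched a fixed pattern. The rule used no measured value, but the members were chosen with earlier results of these data known. There were 3 serine synthesis genes, 5 folate one-carbon genes, 3 asparagine and proline genes, 4 transporters, 5 stress response regulators and 18 synthetases. Of these, 36 were listed in both tables, while Atf5 and Trib3 were listed in the culture table alone.

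RNA was read by Smart-seq2, which sequences whole transcripts from few cells. Values are TPM, which divide reads by transcript length and scale the result to a fixed total in each library. In culture, ILC2s of wild-type C57BL/6 mice were kept with IL-2 and IL-7, with or without the epithelial cytokine IL-25, for 4, 48 or 72 h. The other 16 libraries came from ILC2s titled nILC2 or iILC2 from KO mice or CTRL mice (genotype label WT) of the same strain, all labelled as IL-25 for 48 h, and the protocol names mice given IL-25 or PBS for 2 days or left at steady state. The labels do not expand the prefixes n and i or describe the KO allele, which the file label calls cKO and the series title places at Rxrg, a nuclear retinoid receptor. Per the labels all mice were 8 to 12 weeks old and both sexes were pooled, and each of the 10 groups had 4 libraries. Y-linked transcripts summed to at most 0.59 TPM in replicates 1 and 2 of KO nILC2 and KO iILC2 and in replicate 2 of CTRL nILC2 and CTRL iILC2, against at least 93.4 TPM in the other 10 libraries of that table. The labels do not say whether these came from separate animals or cultures, so the p-values measure only the spread between these libraries.

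Serine is built from a glycolytic intermediate by the enzymes of Phgdh, Psat1 and Psph, and the Shmt enzymes pass its side-chain carbon to folate for purine and thymidylate synthesis. Uncharged transfer RNA activates the eIF2 kinase GCN2, and translation of ATF4 then increases. ATF4 is a transcription factor known to act on genes of serine, asparagine and proline synthesis, amino acid uptake and transfer RNA charging. Proliferating lymphocytes are known to draw on serine and its one-carbon units.

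Listed TPM summed to between 873200 and 898025 per culture library and between 849733 and 886670 in the other table, and because TPM keeps no read total, depth is unknown. Rxrg was at 2.58, 1.76, 1.27 and 3.12 TPM in KO nILC2, against 12.3, 17.4, 12.2 and 18.4 TPM in CTRL nILC2. KO iILC2 had 0.26, 0.48, 0 and 0.38 TPM, against 1.72, 1.83, 1.26 and 1.68 TPM in CTRL iILC2. All 10 ILC2 markers on the list used were listed, and their sum was at least 1053 TPM in every library. The list holds Gata3, Il7r and Il17rb but also the secreted factor genes Il5, Il13 and Areg. Il5 alone ranged from 153 to 3568 TPM in culture, so the sum does not measure ILC2 content alone. At 48 h the sum was 3885 to 4441 TPM with IL-25, against 2638 to 2939 TPM without. Replicate 1 of KO nILC2 stood apart, with the lowest correlation to the rest of its group (r = 0.977 over genes). Red-cell, epithelial and T cell markers were lower with IL-25 at all 3 times: at 48 h the haemoglobin genes Hba-a1 and Hba-a2 (2 of 5 red-cell markers listed) summed to 8.71 to 19.4 TPM with IL-25, against 479 to 553 TPM without. In the same libraries Epcam and Krt18 (2 of 6 epithelial markers) summed to 35.1 to 40.5 TPM with IL-25, against 95.9 to 113 TPM without. Cd3e and Cd3g (2 of 8 T cell markers) summed to 23.95 to 28.97 TPM with IL-25, against 82.4 to 129 TPM without. Other lists went the opposite way. Cd79b (1 of 5 B and plasma cell markers) was at 71.3 to 91.5 TPM at 48 h with IL-25, against 43.5 to 49.8 TPM without. Pecam1 (1 of 4 stromal and endothelial markers) was higher with IL-25 at each time, at 146 to 161 TPM at 4 h, against 32.8 to 42.4 TPM without. The myeloid genes Cd68 and Fcer1g (2 of 6) summed to 31.1 to 45.4 TPM at 72 h with IL-25, against 12.1 to 26.9 TPM without. The part of these cells in the results was not tested.

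The motif TGATGNAA, the shared letters of the paired C/EBP and ATF half-sites at which ATF4 dimers are known to bind in amino acid response genes, was searched on both strands of RefSeq promoter windows (build GRCm38.p6, 250 bases before to 50 bases after a transcript start). The windows of 29 of the 38 genes were used, a number that leaves out Hars, Lars and Nars. Of these 29 genes, 8 (27.6%) held a match, and of all genes with a window 1219 of 27025 (4.51%) did. Genes were left out of the first count only, so these shares are not of like sets. Stretches of these 8 promoters are shown because Asns, Pycr1 and Trib3 had the 3 highest differences with IL-25 at 72 h, and Gars, Yars, Iars, Tars and Aars let the synthetases be read beside them. Each is written 5′ to 3′ on the strand of its gene with the match in capitals.
Asns chr6:7693210-7693309 (-): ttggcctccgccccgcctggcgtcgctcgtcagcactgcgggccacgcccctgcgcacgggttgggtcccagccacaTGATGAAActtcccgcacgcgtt
Pycr1 chr11:120643798-120643897 (-): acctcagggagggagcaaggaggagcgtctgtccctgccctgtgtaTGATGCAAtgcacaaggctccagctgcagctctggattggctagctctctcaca
Trib3 chr2:152344028-152344057 (-): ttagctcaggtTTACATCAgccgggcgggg
Gars chr6:55037901-55038000 (+): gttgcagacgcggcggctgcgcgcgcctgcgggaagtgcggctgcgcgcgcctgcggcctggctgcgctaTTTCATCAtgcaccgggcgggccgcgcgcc
Yars chr4:129189895-129189924 (+): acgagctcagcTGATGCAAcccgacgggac
Iars chr13:49682126-49682155 (+): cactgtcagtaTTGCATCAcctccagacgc
Tars chr15:11399659-11399758 (-): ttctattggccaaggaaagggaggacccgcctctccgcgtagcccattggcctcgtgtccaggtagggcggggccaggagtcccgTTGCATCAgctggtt
Aars chr8:111033840-111033869 (+): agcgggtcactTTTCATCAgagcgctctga
Asns carries the match 23 bases before its start site and Pycr1 103 bases before, while in Trib3 it begins at base 15 of the transcript. At 48 h the median log2 difference with IL-25 was 0.90 over the 8 genes with a match, against 0.59 over the 21 whose window was used and held no match. At 72 h the medians were 0.64 and 0.26. A match is a string of letters and no measured binding site, and genes with no match in the window, among them Phgdh, Psat1, Atf4 and Shmt1, may carry the letters elsewhere.

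With IL-25, most of the 38 genes were higher at every culture time, and none was called lower at 4 h. At 4 h 24 of 38 rose, where 13.4% of all genes tested rose and 26.9% fell. At 48 h 27 rose and 2 fell, against 21.4% and 28.7% of all genes. At 72 h 26 rose and 3 fell, against 15.3% and 33.2% of all genes. The median log2 difference of the set was 0.36 at 4 h, 0.66 at 48 h and 0.46 at 72 h, while the median over all genes was -0.12, -0.09 and -0.20. Differences are given throughout as log2(TPM + 1), which understates those of genes at few TPM, with standard errors and with p-values adjusted over all genes. Every library with IL-25 lay above every library without it for 24 of the 38 genes at 4 h and for 23 each at 48 h and 72 h, and below for 2 at 48 h and 4 at 72 h. Of all genes tested, 13%, 19.5% and 13.9% lay wholly above at the 3 times and 22.9%, 24.8% and 29.4% wholly below. In bulk RNA, fewer cells of a type and less RNA per cell cannot be told apart. Scaling by the median of ratios set the median of all genes to 0.003, -0.008 and 0.007 at the 3 times, with 2231, 2768 and 2648 of all genes higher and 2104, 2654 and 2155 lower. The set then had 30, 30 and 28 genes higher and 0, 2 and 1 lower.

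**Figure D1:**
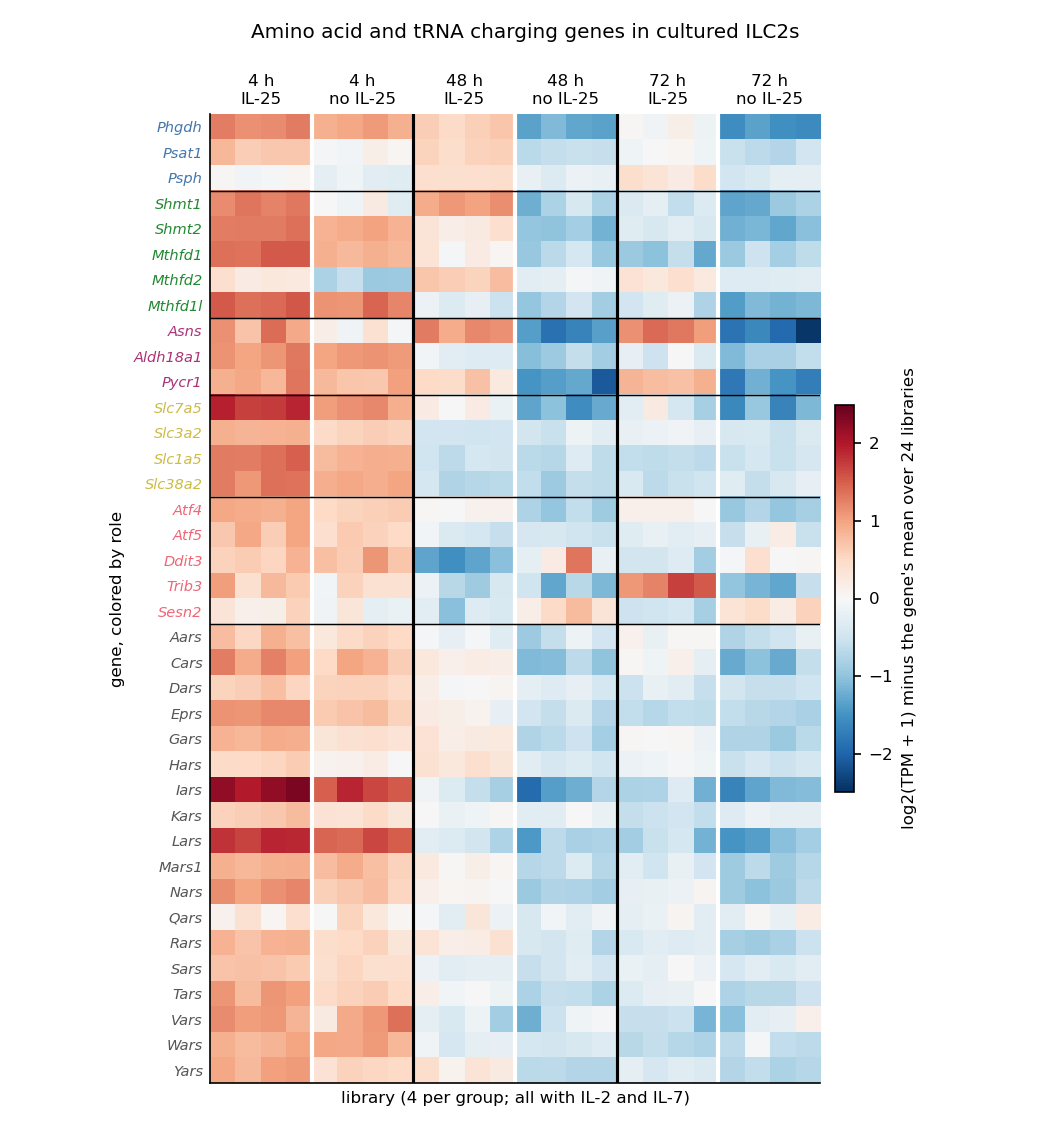
Each row is one of the 38 genes, grouped by role, and each column 1 of the 24 culture libraries. Color gives log2(TPM + 1) minus the mean of that gene over the 24 libraries, with the scale clipped at its ends. Most rows are highest at 4 h in both conditions. At 48 and 72 h Asns, Phgdh and Pycr1 are higher in the columns with IL-25, and Ddit3 and Sesn2 are lower there.

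The serine synthesis genes were higher with IL-25 at all 3 times, all 3 of 3 each time, and the gap was widest at 48 h for Phgdh and Psat1. Phgdh (chr3:98313171-98339969) encodes the first and committed enzyme of the pathway. At 4 h it had 526, 479, 491 and 534 TPM with IL-25, against 401, 423, 455 and 402 TPM without. The groups did not overlap, though the difference was small at 0.27 ± 0.07 (adjusted p = 0.004). At 48 h Phgdh stood at 334, 304, 327 and 351 TPM with IL-25, against 85.6, 100.4, 88.01 and 85.5 TPM without. By 72 h it had 221, 205, 241 and 199.5 TPM with IL-25, against 73.5, 85.3, 74.3 and 70.8 TPM without. The separation was 3.66-fold at 48 h, with a log2 difference of 1.86 ± 0.07 (adjusted p = 9.8e-17), and 1.5 ± 0.07 (adjusted p = 7.1e-15) at 72 h.

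Psat1 (chr19:15905123-15925059) encodes the aminotransferase of the second step. It reached 288, 247, 259 and 258 TPM at 4 h with IL-25, against 156, 155, 179.8 and 167 TPM without. At 48 h its values were 236, 219.8, 239.9 and 243 TPM with IL-25, against 100.3, 106, 109 and 108 TPM without. All 4 libraries with IL-25 exceeded all 4 without at both times, by 0.68 ± 0.07 (adjusted p = 1.2e-08) and 1.14 ± 0.07 (adjusted p = 3.2e-13), and by 0.57 ± 0.07 (adjusted p = 1.5e-07) at 72 h. Psph, whose phosphatase releases free serine, rose by 0.63 ± 0.07 (adjusted p = 1.1e-07) at 48 h. At 72 h Psph had 76.1, 70.5, 64.8 and 76.5 TPM with IL-25, against 39.5, 42.8, 46.6 and 47.6 TPM without, a gap of 0.69 ± 0.07 (adjusted p = 2.8e-08). Its smaller rise at 4 h, 0.22 ± 0.07 (adjusted p = 0.02), lost its call when replicate 3 or 4 without IL-25 or replicate 4 with IL-25 was left out, with log2 differences of 0.20. Summed over the 3 genes, serine synthesis transcripts were at 826 ± 41.2 TPM at 4 h, 639 ± 30.1 TPM at 48 h and 445 ± 20.9 TPM at 72 h with IL-25, against 632 ± 33.9, 244 ± 6.76 and 226 ± 7.38 TPM without (SD, n = 4).

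Folate one-carbon genes rose in 4 of 5 cases at 4 h, 5 of 5 at 48 h and 4 of 5 at 72 h, and none fell. Shmt1, the cytosolic enzyme that moves a carbon from serine to folate, had the highest difference of all 38 genes at 4 h. Its values there were 91.6, 102, 95.5 and 99.95 TPM with IL-25, against 39.4, 36.5, 46.3 and 32.1 TPM without. At 48 h Shmt1 had 76.5, 85.4, 80.6 and 90.3 TPM with IL-25, against 16.3, 22.6, 29.8 and 22.6 TPM without. Both times the groups lay apart, by 1.32 ± 0.14 (adjusted p = 4.7e-08) and 1.85 ± 0.14 (adjusted p = 5.5e-11). The gap at 72 h was 0.69 ± 0.14 (adjusted p = 0.00031), as Shmt1 averaged 30.02 ± 3.37 TPM with IL-25 and 18.4 ± 3.48 TPM without (SD, n = 4 each).

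Shmt2, the mitochondrial counterpart, had the higher TPM of the 2 in every culture group. It had 193, 173, 181 and 207 TPM at 48 h with IL-25, against 78.01, 75.8, 85.3 and 67.5 TPM without. At 72 h the values were 124, 116, 125 and 116 TPM with IL-25, against 66.6, 69.3, 62.2 and 74.5 TPM without. No library with IL-25 fell below one without it, and the gaps were 1.29 ± 0.07 (adjusted p = 9.2e-14) and 0.81 ± 0.07 (adjusted p = 7.8e-10). Mthfd2, a mitochondrial folate dehydrogenase, responded early. At 4 h it had 99.95, 85.9, 89.5 and 89.1 TPM with IL-25, against 42.6, 49.98, 38.97 and 39.5 TPM without, a rise of 1.08 ± 0.08 (adjusted p = 1.1e-10) with no overlap. Its later gaps were 0.81 ± 0.08 (adjusted p = 5.5e-09) at 48 h and 0.63 ± 0.08 (adjusted p = 4.9e-07) at 72 h. Mthfd1, the cytosolic folate enzyme with 3 activities, rose by 0.60 ± 0.13 (adjusted p = 0.00051) at 4 h and 0.89 ± 0.13 (adjusted p = 2.2e-06) at 48 h, and at 72 h its difference was -0.22 (adjusted p = 0.16). Mthfd1l, the mitochondrial formate producer, had its smallest difference first: 0.25 (adjusted p = 0.13) at 4 h and a rise of 0.45 ± 0.13 (adjusted p = 0.0052) at 48 h. Its 4 h difference was called under median-of-ratios scaling (0.39) and quantile normalization (0.30). At 72 h it had 19.1, 21.7, 24.4 and 15.3 TPM with IL-25, against 9.64, 12.02, 11.3 and 11.9 TPM without, and the groups differed by 0.78 ± 0.13 (adjusted p = 2.2e-05).

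Asns showed the widest difference of the set on the log2(TPM + 1) scale at 48 h and 72 h. It encodes asparagine synthetase and spans chr6:7675165-7693209, with the promoter match shown above. At 4 h it had 45.3, 33.4, 54.2 and 39.9 TPM with IL-25, against 22.6, 18.7, 26.6 and 19.5 TPM without. At 48 h the values were 51.2, 39.1, 47.6 and 45.6 TPM with IL-25, against 7.16, 4.76, 5.59 and 7.26 TPM without. At 72 h they were 45.3, 55.2, 51.4 and 42.3 TPM with IL-25, against 4.89, 5.93, 4.5 and 2.89 TPM without. The groups were apart each time and the ratio of means widened, at 1.97-fold, 7.41-fold and 10.7-fold. As log2 differences these were 0.94 ± 0.17 (adjusted p = 7.5e-05), 2.71 ± 0.17 (adjusted p = 9.6e-13) and 3.18 ± 0.17 (adjusted p = 4.3e-14). With IL-25 its means at the 3 times were 43.2, 45.9 and 48.5 TPM, whereas without IL-25 the means were 21.9, 6.19 and 4.55 TPM.

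Pycr1 encodes the last enzyme of proline synthesis and was low throughout. At 48 h it had 5.13, 4.93, 6.15 and 4.13 TPM with IL-25, against 0.55, 0.66, 0.77 and 0 TPM without, where it was listed at 0 in replicate 4. At 72 h it had 6.74, 6.39, 6.18 and 7.03 TPM with IL-25, against 0.25, 0.87, 0.56 and 0.30 TPM without. The 2 groups lay apart at both times, by 2.05 ± 0.18 (adjusted p = 6e-10) and 2.36 ± 0.18 (adjusted p = 5.4e-11), or 10.3-fold and 13.3-fold as ratios of mean TPM, wider than for Asns, while the 4 h libraries overlapped at 0.21 (adjusted p = 0.38). That 4 h difference was called under quantile normalization (0.44). Aldh18a1, which starts proline synthesis from glutamate, differed by 0.07 (adjusted p = 0.69) at 4 h and rose by 0.62 ± 0.12 (adjusted p = 0.00011) at 48 h and 0.57 ± 0.12 (adjusted p = 0.00035) at 72 h.

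**Figure D2:**
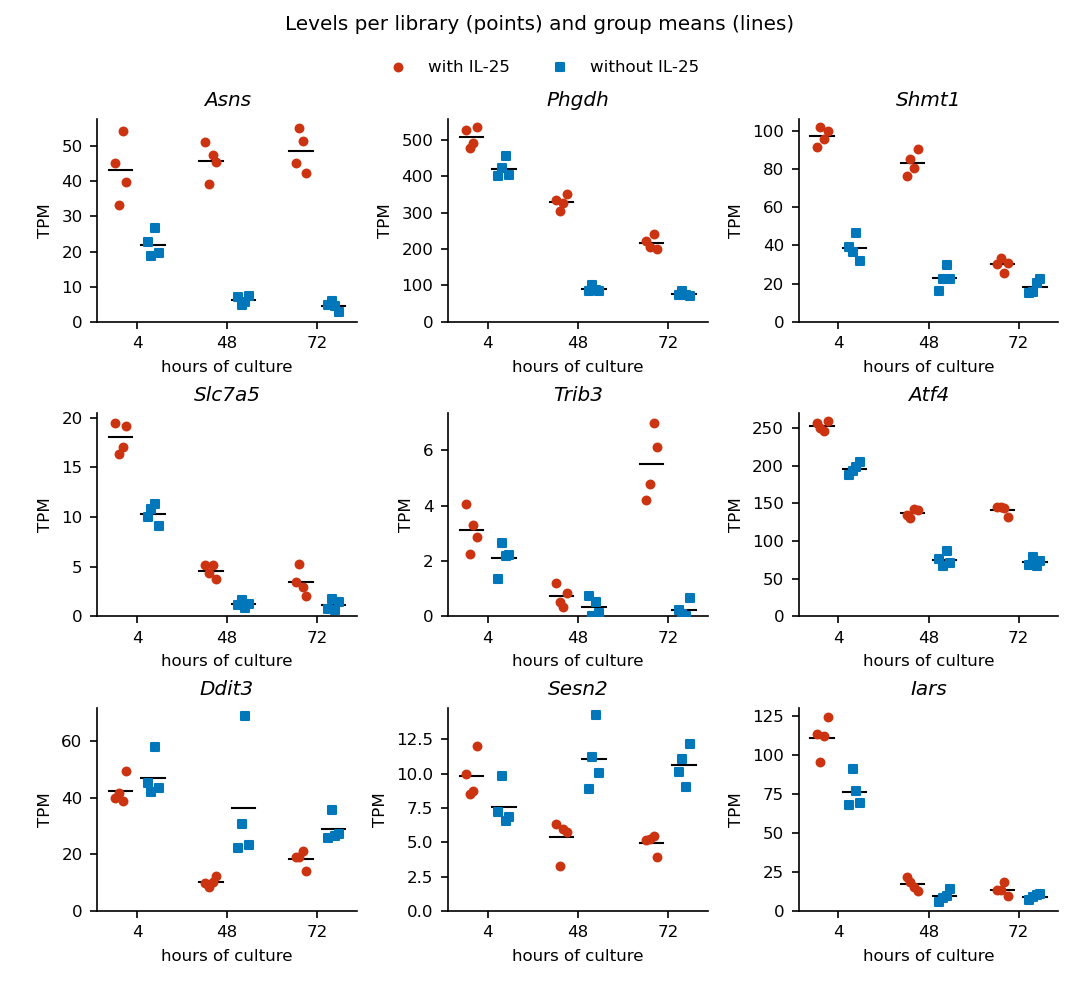
TPM of 9 genes on linear axes starting at 0, at 4, 48 and 72 h of culture. Each point is 1 library, red circles with IL-25 to the left and blue squares without to the right, and black lines are means of 4. Asns, Phgdh and Slc7a5 with IL-25 sit above the libraries without it at all 3 times, Trib3 only at 72 h, and Ddit3 and Sesn2 with IL-25 sit below at 48 and 72 h.

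The transporters parted into an early rise of all 4 and a later one of Slc7a5. At 4 h 4 of 4 rose, and at 48 h and 72 h 1 and 2 did. Slc7a5, the light chain of the LAT1 exchanger of large neutral amino acids, had low TPM. It had 19.5, 16.4, 17.01 and 19.1 TPM at 4 h with IL-25, against 9.97, 10.8, 11.3 and 9.04 TPM without. At 48 h the values were 5.14, 4.39, 5.13 and 3.74 TPM with IL-25, against 1.15, 1.64, 0.82 and 1.24 TPM without. At 72 h they were 3.41, 5.26, 2.94 and 2.01 TPM with IL-25, against 0.75, 1.76, 0.67 and 1.46 TPM without. The libraries did not overlap at any time, and the differences were 0.75 ± 0.19 (adjusted p = 0.0031), 1.34 ± 0.19 (adjusted p = 2.7e-06) and 1.01 ± 0.19 (adjusted p = 0.00014). Its heavy chain partner Slc3a2, which brings LAT1 to the cell surface, rose by 0.32 ± 0.07 (adjusted p = 0.00047) at 4 h and differed by -0.13 (adjusted p = 0.12) at 48 h. At 48 h Slc3a2 was called lower under quantile normalization (-0.27) and without replicate 2 lacking IL-25 (-0.19). At 72 h Slc3a2 had 206, 212, 220.2 and 204 TPM with IL-25, against 179, 180.3, 161 and 183 TPM without, 0.26 ± 0.07 (adjusted p = 0.0022) higher. The glutamine carrier Slc1a5 had 282, 281, 298 and 324 TPM at 4 h with IL-25, against 200.1, 212, 215 and 214 TPM without. That gap of 0.49 ± 0.08 (adjusted p = 1.1e-05) was the second largest of the class. Slc1a5 differed by 0.08 (adjusted p = 0.41) at 48 h and -0.13 (adjusted p = 0.16) at 72 h. Its 48 h difference was called under median-of-ratios scaling (0.18) and without replicate 3 lacking IL-25 (0.17). Slc38a2, the SNAT2 carrier of small neutral amino acids, rose by 0.34 ± 0.11 (adjusted p = 0.013) at 4 h. It then differed by 0.04 (adjusted p = 0.76) at 48 h and -0.15 (adjusted p = 0.26) at 72 h.

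The 5 stress response regulators did not move as a group: Atf4 was higher with IL-25 at each time, Trib3 at 72 h, and Ddit3 and Sesn2 were lower at 48 h and 72 h. Atf4 had 258, 250.1, 246 and 260.2 TPM at 4 h with IL-25, against 188, 193, 199 and 205 TPM without. At 72 h it had 145, 145, 144 and 133 TPM with IL-25, against 67.8, 79.4, 67.02 and 73.4 TPM without. All 4 libraries with IL-25 were above all 4 without, by 0.37 ± 0.07 (adjusted p = 0.00013), 0.87 ± 0.07 (adjusted p = 1.2e-10) and 0.97 ± 0.07 (adjusted p = 1.7e-11) at the 3 times. ATF4 protein is set largely by translation, which RNA levels do not measure. Trib3, a pseudokinase gene known as an ATF4 and CHOP target, overlapped between groups at 4 h and 48 h. At 72 h it had 4.2, 4.77, 6.98 and 6.11 TPM with IL-25, against 0.23, 0.10, 0 and 0.65 TPM without, and replicate 3 without IL-25 was listed at 0. The rise was 2.39 ± 0.22 (adjusted p = 1.3e-09), a 22.5-fold ratio of mean TPM.

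Ddit3, which encodes the stress factor CHOP, went the other way. At 48 h it had 9.99, 8.47, 10.03 and 12.4 TPM with IL-25, against 22.2, 30.8, 68.7 and 23.1 TPM without, where replicate 3 was far above the other replicates. At 72 h the values were 19.1, 19.1, 21.1 and 13.9 TPM with IL-25, against 25.7, 35.7, 26.5 and 27.2 TPM without. The groups did not overlap, and Ddit3 fell by 1.58 ± 0.23 at 48 h (adjusted p = 2.2e-06) and by 0.63 ± 0.23 at 72 h (adjusted p = 0.025) on the log2 scale. The call at 72 h was lost under both other scalings, without replicate 2 of the cultures lacking IL-25 (-0.52) and without replicate 4 with IL-25 (-0.51). The annotated span of Ddit3 overlaps that of the synthetase gene Mars1 by 71 bases, and how reads there were counted is not given in the sources used here.

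Sesn2, a leucine sensor that holds back mTORC1, had 6.34, 3.28, 6.0 and 5.78 TPM at 48 h with IL-25, against 8.91, 11.2, 14.3 and 10.03 TPM without. At 72 h it had 5.18, 5.22, 5.49 and 3.95 TPM with IL-25, against 10.1, 11.1, 9.01 and 12.2 TPM without. Every library with IL-25 was lower at both times, with log2 differences of -0.94 ± 0.18 (adjusted p = 9.3e-05) and -0.96 ± 0.18 (adjusted p = 8.9e-05), and the 4 h libraries overlapped at 0.34 (adjusted p = 0.14). Under median-of-ratios scaling (0.46) and quantile normalization (0.54) Sesn2 was called higher at 4 h. Atf5, an ATF4-related factor, reached 1 TPM in 9 of 24 libraries and differed by 0.27 (adjusted p = 0.19), 0.10 (adjusted p = 0.63) and 0.04 (adjusted p = 0.87). Its 4 h difference was called under quantile normalization (0.52).

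Cytosolic synthetases, which join each amino acid to its transfer RNA, rose in 11 of 18 cases at 4 h, 14 at 48 h and 12 at 72 h, and 1 fell at 72 h. At 48 h and 72 h their differences were smaller than those of Asns or Phgdh. Gars, for glycine, had 213, 205, 221 and 219 TPM at 4 h with IL-25, against 142, 151, 154 and 147 TPM without, a gap of 0.53 ± 0.07 (adjusted p = 1.7e-06) with no overlap. Iars, for isoleucine, had 113, 95.05, 112 and 124 TPM at 4 h with IL-25, against 67.6, 90.7, 76.8 and 69.2 TPM without. The Iars libraries lay apart by 0.54 ± 0.21 (adjusted p = 0.038), but the call was lost with a pseudocount of 0.1 TPM (0.55) and when replicates 1, 3 or 4 of either group were left out one at a time (0.49 to 0.55).

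Cars, for cysteine, and Yars, for tyrosine, led the class at 48 h. Cars had 33.9, 30.7, 32.04 and 31.8 TPM with IL-25 then, against 12.5, 12.7, 17.6 and 13.5 TPM without. Yars had 81.01, 63.1, 75.5 and 69.3 TPM with IL-25, against 36.7, 37.4, 35.4 and 35.2 TPM without. Neither overlapped, and the rises were 1.15 ± 0.14 (adjusted p = 2.4e-07) and 0.97 ± 0.08 (adjusted p = 1.8e-10). At 72 h Cars had 28.6, 26.2, 30.9 and 23.8 TPM with IL-25, against 11.2, 13.3, 11.1 and 18.3 TPM without, and Nars, for asparagine, had 100.1, 102, 105 and 121 TPM with IL-25, against 62.02, 56.02, 60.2 and 73.1 TPM without. These 2 gaps were 0.99 ± 0.14 (adjusted p = 2.7e-06) and 0.76 ± 0.08 (adjusted p = 1.9e-08), again with no overlap. Kars, for lysine, fell at 72 h, with 124, 129.8, 136 and 123 TPM with IL-25, against 152, 170.5, 160.1 and 161 TPM without. This difference of -0.32 ± 0.07 (adjusted p = 0.00042) was no longer called with median-of-ratios scaling, at -0.09.

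Nars, Gars, Hars, Rars, Sars, Tars and Yars were called higher at all 3 times, with log2 differences between 0.20 and 0.97. Cars and Iars were also called higher at all 3 times. At 48 h Iars had 21.9, 18.3, 15.2 and 12.8 TPM with IL-25, against 5.4, 8.44, 9.45 and 13.7 TPM without, so these libraries overlapped. Eprs, the joint glutamate and proline enzyme, rose at 4 h and 48 h, by 0.47 and 0.59, and Dars at 48 h, by 0.35. Mars1 rose by 0.73 and 0.43 at 48 h and 72 h. The enzymes for glutamine, valine and tryptophan, Qars, Vars and Wars, were not called at any time in the main fit, with differences from -0.37 to 0.17. Several of these calls rested on single libraries. Aars and Lars rose by 0.38 and 0.46 at 48 h, and Lars and Iars by 0.42 and 0.52 at 72 h, and all of these lost their call when the 2 groups were fitted alone. The Aars call was also lost without replicate 1 or 2 lacking IL-25 or replicate 1 or 3 with it (0.26 to 0.36), and the Lars call at 48 h without replicate 1 lacking IL-25 or replicate 1 or 2 with it (0.28 to 0.42). At 72 h Lars was not called without replicate 1 or 2 lacking IL-25 or replicate 2 or 3 with it (0.32 to 0.36), nor Iars without replicate 1 or 2 lacking IL-25 or replicate 1, 2 or 3 with it (0.37 to 0.53). The Cars rise at 4 h, 0.38, was lost without replicate 1 or 4 lacking IL-25 or replicate 1 or 3 with it (0.29 to 0.33). Sars was not called at 48 h after quantile normalization (0.09) or at 72 h without replicate 3 with IL-25 (0.16). Kars, before its fall, had risen by 0.30 at 4 h, and Aars rose by 0.49 at 72 h. Other calls appeared only under an alternative. Median-of-ratios scaling added rises of Aars (0.42), Lars (0.46), Mars1 (0.28) and Dars (0.22) at 4 h. At 48 h it added Kars (0.23) and Wars (0.27), and at 72 h Dars (0.37) and Eprs (0.30). Quantile normalization added Aars at 4 h (0.38) and Dars (0.19) and Eprs (0.23) at 72 h. Vars was called lower at 72 h without replicate 1 lacking IL-25 (-0.60). All 18 synthetase transcripts together summed to 2747 ± 95.8 TPM at 4 h, 1500.1 ± 85.6 TPM at 48 h and 1195 ± 53.7 TPM at 72 h with IL-25, against 2230.2 ± 126, 1061 ± 72.7 and 1028 ± 76.3 TPM without (SD, n = 4).

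**Figure D3:**
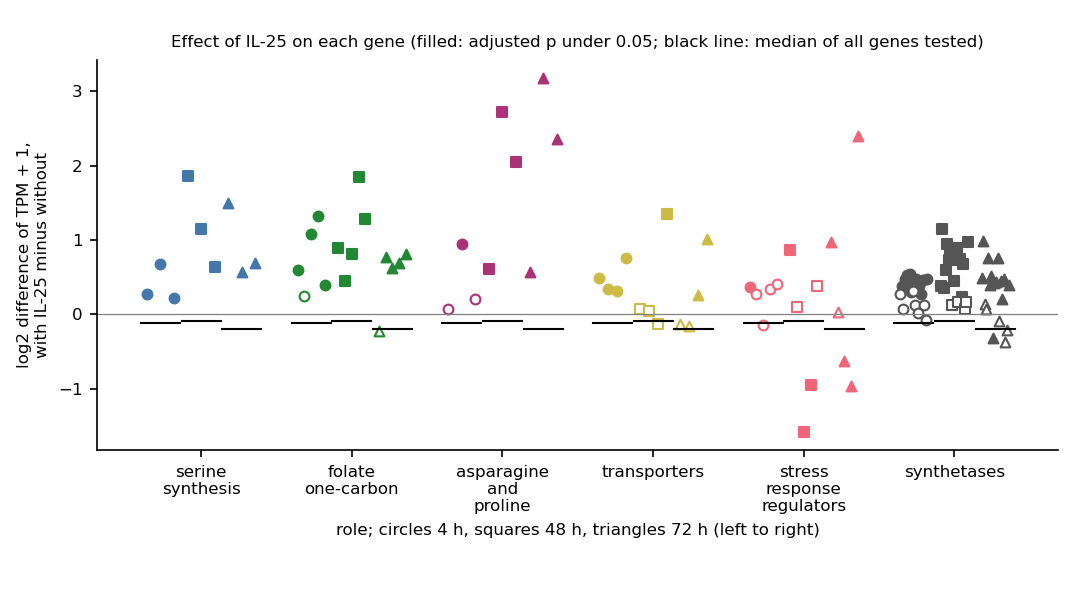
Log2 difference of TPM + 1, with IL-25 minus without, for each of the 38 genes at 4, 48 and 72 h, in columns by role. Filled points passed an adjusted p of 0.05, open points did not, and the black line is the median of all genes tested. All 3 serine synthesis genes are filled and above the line at every time, while the regulators spread from -1.58 to 0.87 at 48 h.

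Between 4 h and 48 h of culture most of the set declined, in both conditions. With IL-25 33 of 38 fell and 2 rose, where 44.5% of all genes fell and 27.6% rose. Without IL-25 34 fell and 2 rose, where 44.5% of all genes fell and 19.9% rose. The median change was -0.93 with IL-25 and -1.23 without, beside -0.24 and -0.28 over all genes. Summed over the 38 genes, levels were 5611 ± 190.04 TPM at 4 h, 3111 ± 130.04 TPM at 48 h and 2491 ± 110.3 TPM at 72 h with IL-25, against 4366 ± 207, 1943 ± 159 and 1854 ± 114 TPM without (SD, n = 4). Median-of-ratios scaling set the median of all genes to 0.0002 with IL-25 and 0.007 without, and all genes then split into 3678 lower and 3811 higher with IL-25, and 3060 lower and 3279 higher without. Of the set, 30 then fell with IL-25 and 33 without, while 3 rose in each.

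The steepest declines in both conditions on the log2(TPM + 1) scale were those of Iars and Lars. This scale understates the declines of Pycr1 and Slc7a5. Without IL-25 their means went from 6.545 to 0.495 TPM and from 10.3 to 1.21 TPM. The log2 change of Iars was -2.65 ± 0.21 with IL-25 and -2.96 ± 0.21 without, and that of Lars, for leucine, -2.29 ± 0.17 and -2.43 ± 0.17. Slc1a5 and Slc38a2 changed by -1.87 ± 0.08 and -1.93 ± 0.11 with IL-25, and by -1.46 ± 0.08 and -1.63 ± 0.11 without. The difference between these changes was called for Slc1a5 but not for Slc38a2. The mitochondrial folate enzyme gene Mthfd2 rose in both, by 0.38 ± 0.08 with IL-25 and 0.64 ± 0.08 without. Psph rose by 0.43 ± 0.07 with IL-25, beside 0.01 (adjusted p = 0.91) without, and the difference between these was called. Without IL-25 Psph was also called higher under both other scalings (0.34 and 0.25), and under quantile normalization the difference was not called (0.26).

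The change between 4 h and 48 h differed by condition for 19 of the 38 genes: 15 had the higher value with IL-25 and 4 the lower, where 17.2% and 10.7% of all genes did. The Asns change was 0.10 (adjusted p = 0.61) with IL-25, and Asns fell by 1.67 ± 0.17 without it, a difference of 1.77 in log2 change. Phgdh changed by -0.62 ± 0.07 with IL-25 and -2.21 ± 0.07 without, and Pycr1 by -0.52 ± 0.18 and -2.36 ± 0.18. These gaps in change were 1.59 for Phgdh and 1.84 for Pycr1. The Pycr1 decline with IL-25 was no longer called with a pseudocount of 0.1 TPM (-0.60), under either other scaling (-0.28 and -0.25) or without replicate 4 with IL-25 at 4 h (-0.41). Ddit3 and Sesn2 had the opposite pattern, with gaps of -1.44 and -1.28. Ddit3 fell by 1.96 ± 0.23 with IL-25, and without it the change was -0.51 ± 0.23 (adjusted p = 0.0502), a decline that was called with the replicate block or a filter of 5 TPM (-0.51) and without replicate 3 at 48 h (-0.87). Sesn2 fell by 0.79 ± 0.18 with IL-25 and rose by 0.49 ± 0.18 without, a rise that was no longer called without replicate 3 or 4 at 4 h or replicate 3 at 48 h (0.37 to 0.45). With median-of-ratios scaling the small declines of Psat1 and Hars with IL-25 turned to 0.12 and 0.083, neither of them called, and the Psat1 call was also lost without replicate 1 at 4 h (-0.12) or replicate 1 or 2 at 48 h (-0.17 and -0.13).

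**Figure D4:**
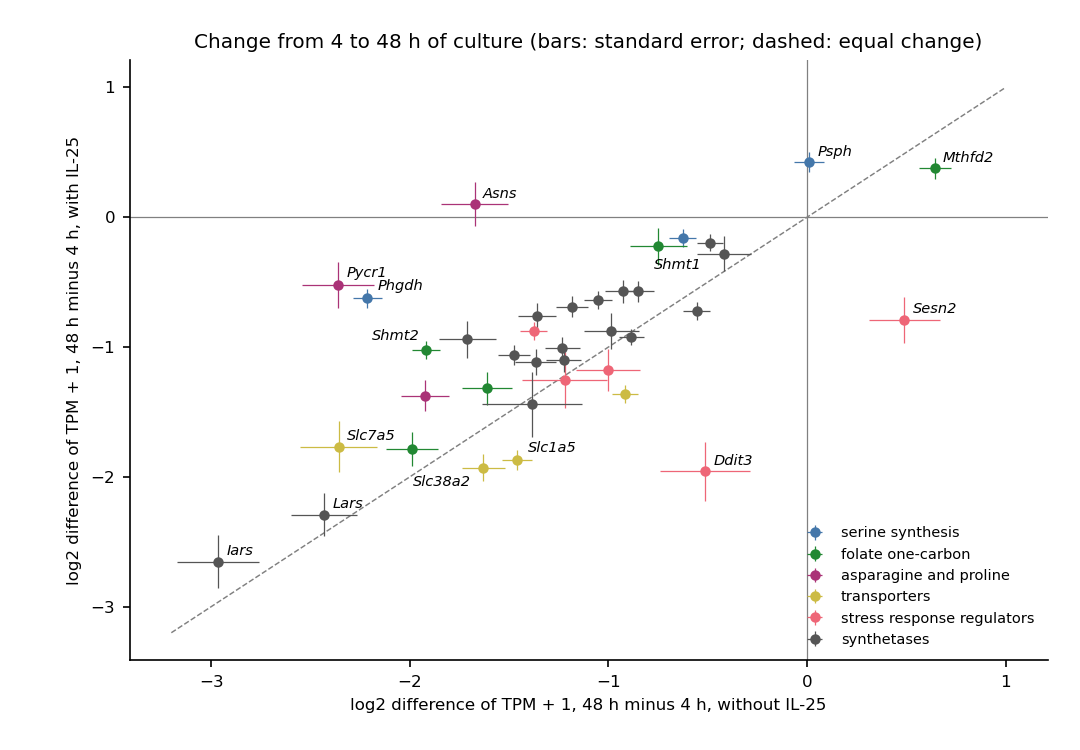
Change between 4 h and 48 h in log2(TPM + 1) for the 38 genes, with IL-25 on the vertical axis and without on the horizontal axis, with standard errors as bars and color by role. Points above the dashed line of equal change had the higher change with IL-25, with Asns, Pycr1 and Phgdh farthest above. Ddit3 and Sesn2 lie farthest below.

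From 48 h to 72 h changes of the set were called with IL-25, and without it none was, though 1 and 2 genes fell under the other scalings. With IL-25 15 of 38 fell and 3 rose, where 17.9% of all genes fell and 13.4% rose, and without IL-25 limma called 0 of 38, with 7 at an unadjusted p under 0.05 (11.6% of all genes were), where 0.284% of all genes rose and 0.0948% fell. The change itself differed by condition for 12 genes, 9 lower and 3 higher with IL-25, against 9.5% and 5.22% of all genes. Shmt1 and Mthfd1 fell the most with IL-25, at -1.44 ± 0.14 and -1.09 ± 0.13, and 9 of 18 synthetases fell. Trib3, Ddit3 and Slc3a2 rose, by 1.92 ± 0.22, 0.78 ± 0.23 and 0.33 ± 0.07. The cultures without IL-25 at 48 h include the Ddit3 library that stood far above the rest, and the call for the difference in Ddit3 change was lost without any 1 of 11 libraries (0.60 to 0.98).

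Other genes of these pathways were counted from 8 lists holding 139 genes. Beside these counts, 13.4%, 21.4% and 15.3% of all genes tested rose with IL-25 at 4, 48 and 72 h. The shares of all genes that fell were 26.9%, 28.7% and 33.2%. The phenylalanine synthetase and the scaffolds of the multi-synthetase complex also rose, with 5, 4 and 3 of 5 genes higher at 4, 48 and 72 h and none lower. Among them Eef1e1, a scaffold protein gene, averaged 159 TPM at 4 h with IL-25 and 73.3 TPM without, a log2 difference of 1.11. Mitochondrial synthetases were mixed: of 17, 2 rose and 4 fell at 4 h, 1 rose and 2 fell at 48 h, and 0 rose and 8 fell at 72 h. Yars2 was higher at 4 h, 15.3 TPM with IL-25 and 8.48 TPM without, and Ears2 lower at 72 h, 3.11 TPM with IL-25 and 8.98 TPM without.

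Genes of folate, methionine and purine metabolism rose in 11 of 21 cases and fell in 3 at 4 h, rose in 10 and fell in 4 at 48 h, and rose in 4 and fell in 8 at 72 h. Mat2a, which makes S-adenosylmethionine, averaged 605 TPM at 4 h with IL-25 and 337 TPM without, yet was lower at 72 h (-0.57). The folate carrier Slc19a1 had 46.7 TPM at 48 h with IL-25 and 13.9 TPM without. Of 8 glycine and serine use genes 3 rose at each time, with 3, 3 and 2 lower, and Gcsh, a glycine cleavage subunit, averaged 67.7 TPM at 48 h with IL-25 and 27.7 TPM without.

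Enzymes of glutamine, glutamate, aspartate and branched-chain metabolism rose in 10 of 15 cases at 48 h and fell in 3. Bcat1, a branched-chain aminotransferase, had 9.31 TPM with IL-25 and 0.62 TPM without, and Got1, an aspartate aminotransferase, 75.8 TPM with IL-25 and 21.7 TPM without. At 4 h 3 rose and 4 fell, and at 72 h 6 rose and 2 fell, Gpt2 the most (3.04). Of 12 other amino acid transporters 5 rose at each time and 3, 2 and 2 fell. Slc7a1, a carrier of arginine and lysine, had 89.9 TPM at 4 h with IL-25 and 56.2 TPM without, and Slc7a8, the LAT2 light chain, fell by 1.62 then.

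Among eIF2 kinases and other stress genes 8, 9 and 7 of 20 rose at 4, 48 and 72 h and 1, 2 and 0 fell. Eif4ebp1, which encodes a translation repressor, averaged 136 TPM at 72 h with IL-25 and 43.6 TPM without, and Nupr1, a stress-induced nuclear protein gene, 228 TPM at 48 h with IL-25 and 41.7 TPM without. Eif2ak2, the kinase PKR, fell at 4 h and 48 h, by 0.74 and 0.81 on the log2 scale. The 23 genes of mTORC1 and its amino acid sensors were mixed: 3, 6 and 6 rose and 9, 5 and 11 fell. Of all genes 13.4%, 21.4% and 15.3% rose and 26.9%, 28.7% and 33.2% fell. The arginine sensor gene Castor1 fell by 1.44 at 4 h, whereas at 48 h it averaged 295 TPM with IL-25 and 65.1 TPM without. Sesn1, the family relative of Sesn2, had 149.9 TPM at 72 h with IL-25 and 30.4 TPM without, the opposite direction to Sesn2.

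In KO against CTRL nILC2, Psat1, Shmt2 and Mars1 were higher and the other 33 measured genes were not called. That is 3 of 36 genes higher and 0 lower, where 0.943% of all genes tested were higher and 0.596% lower. Psat1 had 144, 185, 193 and 156 TPM in KO nILC2, against 128, 124, 131 and 93.4 TPM in CTRL nILC2. Shmt2 had 137, 179.8, 173 and 155 TPM in KO nILC2, against 118, 124, 128 and 116 TPM in CTRL nILC2. Mars1, the synthetase gene for methionine, had 42.2, 58.05, 61.9 and 51.3 TPM in KO nILC2, against 37.7, 41.5, 34.9 and 31.7 TPM in CTRL nILC2. For each of the 3 the lowest KO library lay above the highest CTRL library, with replicate 1 the lowest KO library every time. The rises were 0.50 ± 0.11 (adjusted p = 0.032), 0.40 ± 0.09 (adjusted p = 0.037) and 0.53 ± 0.12 (adjusted p = 0.04).

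Over the 36 genes the median difference in nILC2 was 0.25, beside -0.003 over all genes, 32 were above 0, and 19 had an unadjusted p under 0.05, as did 19.3% of all genes. Mthfd1l and Lars also separated without overlap but were not called, at 0.30 (adjusted p = 0.15) and 0.34 (adjusted p = 0.094). Phgdh averaged 243 ± 55.4 TPM in KO nILC2 and 182 ± 28.04 TPM in CTRL nILC2, Asns 24.02 ± 5.37 TPM in KO and 16.1 ± 4.86 TPM in CTRL, and both overlapped, at 0.40 (adjusted p = 0.12) and 0.57 (adjusted p = 0.18) (SD, n = 4). The count rested on single libraries: without replicate 1 of KO nILC2, the library that stood apart, 12 genes were higher. Of all 10069 genes tested, 641 were then higher, against 95 in the main fit. Without replicate 2, 3 or 4 of KO nILC2 or replicate 4 of CTRL nILC2 0 were, and without replicate 1 or 3 of CTRL nILC2 1 was. When nILC2 were fitted alone 0 were called. A term for the presence of Y-linked transcripts, chosen after seeing the data, left 1. Myeloid transcripts (Itgam, Cd68 and Fcer1g, 3 of 6 markers) summed to 25.4 to 38.1 TPM in KO nILC2, against 8.23 to 22.3 TPM in CTRL nILC2, and epithelial ones to 12.0 to 16.5 TPM in KO, against 18.4 to 30.4 TPM in CTRL. The ILC2 markers summed to 1752 to 2404 TPM in KO nILC2, against 2417 to 2745 TPM in CTRL nILC2. Their part in the result was not tested. Of the pathway lists 1 gene was called, the purine synthesis gene Atic, at 31.2 TPM in KO nILC2 and 19.7 TPM in CTRL nILC2.

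In iILC2 limma called 0 of 36 genes for KO against CTRL, 0 had an unadjusted p under 0.05, and 0 of all 10069 genes passed the adjusted threshold (328 had an unadjusted p under 0.05). Psat1 averaged 157 ± 11.7 TPM in KO iILC2 and 157 ± 11.5 TPM in CTRL iILC2, Shmt2 114 ± 7.11 TPM in KO and 119 ± 11.4 TPM in CTRL, and Mars1 36.5 ± 3.24 TPM in KO and 37.4 ± 3.69 TPM in CTRL (SD, n = 4). Their log2 differences were 0.00 ± 0.11, -0.06 ± 0.09 and -0.04 ± 0.12. The KO effects in iILC2 and nILC2 differed by -0.50, -0.46 and -0.57 for these genes, and limma called 0 of 36 for that difference, and 0 of all genes (1059 at an unadjusted p under 0.05). Without replicate 1 of KO nILC2, limma called Phgdh, Shmt2 and Mars1 for the difference, 3 of 36, and 132 of all genes.

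**Figure D5:**
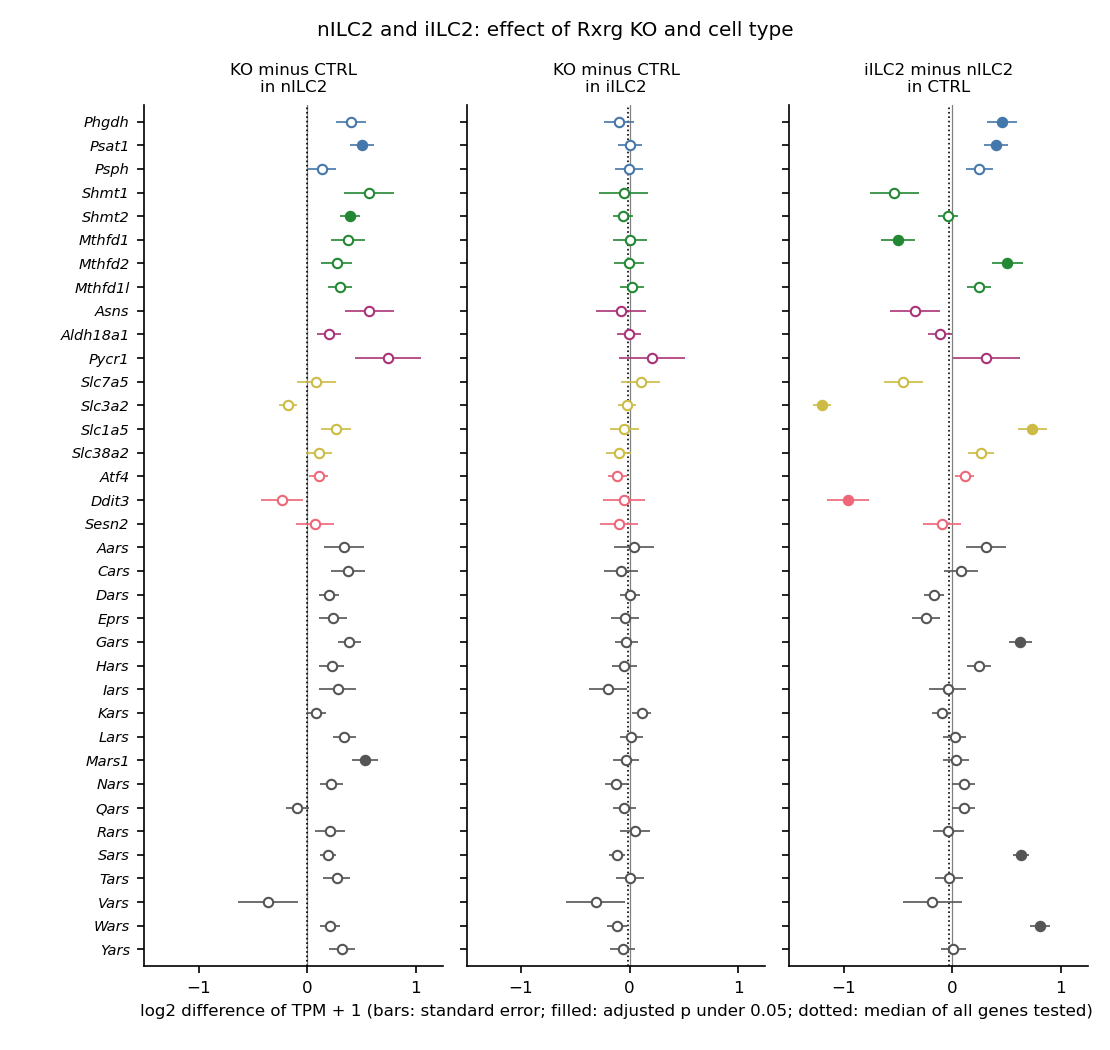
Log2 differences of TPM + 1 with standard errors for 36 genes, grouped by role: KO minus CTRL in nILC2, KO minus CTRL in iILC2, and iILC2 minus nILC2 in CTRL. In nILC2 32 of 36 points lie above 0, with Psat1, Shmt2 and Mars1 called, in iILC2 they lie around 0, and Slc3a2 and Ddit3 lie lowest in the comparison of iILC2 with nILC2.

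In CTRL mice, 7 of the 36 genes were higher in iILC2 than in nILC2 and 3 were lower, where 21.9% of all genes were higher and 23.6% lower. The median was 0.03, against -0.03 over all genes, and the number lower was 6 after quantile normalization and 7 without replicate 4 of CTRL nILC2. The ILC2 markers summed to 1053 to 1127 TPM in CTRL iILC2, against 2417 to 2745 TPM in CTRL nILC2. Myeloid markers summed to 35.6 to 67.3 TPM in CTRL iILC2, against 8.23 to 22.3 TPM in CTRL nILC2, and Cd79b was at 238 to 282 TPM in iILC2, against 117 to 154 TPM in nILC2. Their part in these differences was not tested. Slc3a2 had 64.6, 60.6, 69.3 and 61.9 TPM in CTRL iILC2, against 145, 139.7, 153 and 156 TPM in CTRL nILC2, a log2 difference of -1.20 ± 0.08 (adjusted p = 2.4e-09). Slc1a5 had 100.4, 103, 118 and 105 TPM in CTRL iILC2, against 59.3, 67.4, 80.7 and 49.97 TPM in CTRL nILC2, a rise of 0.74 ± 0.14 (adjusted p = 0.00022). So the 2 transporters that differed did so in opposite directions, and neither overlapped.

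Wars and Sars, for tryptophan and serine, were the synthetases with the widest gaps. Wars had 86.1, 93.2, 86.6 and 85.3 TPM in CTRL iILC2, against 53.3, 52.3, 49.3 and 44.4 TPM in CTRL nILC2. Sars had 165, 176, 159 and 179 TPM in CTRL iILC2, against 106, 116, 105 and 108 TPM in CTRL nILC2. Both were higher in every iILC2 library, by 0.81 ± 0.09 (adjusted p = 1.2e-06) and 0.63 ± 0.07 (adjusted p = 1.1e-06), and Gars rose by 0.63 ± 0.11 (adjusted p = 9.3e-05). In the serine class, Phgdh had 238, 242, 245 and 266 TPM in CTRL iILC2, against 191, 195, 200.02 and 139.8 TPM in CTRL nILC2. Psat1 had 148, 146, 169.7 and 164 TPM in CTRL iILC2, against 128, 124, 131 and 93.4 TPM in CTRL nILC2. The gaps of 0.46 ± 0.14 (adjusted p = 0.01) and 0.40 ± 0.11 (adjusted p = 0.0059) had no overlap but were not called after quantile normalization, at 0.20 and 0.17.

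The folate genes split. Mthfd2 had 67.5, 76.8, 74.5 and 82.7 TPM in CTRL iILC2, against 58.7, 54.5, 46.98 and 50.5 TPM in CTRL nILC2, a rise of 0.51 ± 0.14 (adjusted p = 0.0064). Mthfd1 had 22.3, 30.6, 29.2 and 31.2 TPM in CTRL iILC2, against 43.02, 39.1, 47.2 and 32.2 TPM in CTRL nILC2, a log2 difference of -0.50 ± 0.16 (adjusted p = 0.014). The Mthfd1 call was lost without replicate 3 of CTRL nILC2 (-0.42) or replicate 1 of CTRL iILC2 (-0.39). Ddit3 had 14.04, 9.46, 14.2 and 11.5 TPM in CTRL iILC2, against 26.1, 16.4, 31.9 and 26.1 TPM in CTRL nILC2, lower in all 4 iILC2 libraries at -0.96 ± 0.19 (adjusted p = 0.00051). Outside the 36 genes, Ass1, which makes argininosuccinate, averaged 237 TPM in CTRL iILC2 and 48.9 TPM in CTRL nILC2, and Slc7a8 1.75 TPM in CTRL iILC2 and 49.97 TPM in CTRL nILC2.

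Among KO libraries the same comparison called 3 genes higher and 13 lower in iILC2, where 13.8% of all genes were higher and 17.6% lower. Those higher were Wars (0.48), Slc1a5 (0.42) and Sars (0.32). Slc3a2 (-1.04), Ddit3 (-0.77) and Mthfd1 (-0.87) were lower, as in CTRL. Shmt1 (-1.16), Asns (-0.99), Shmt2, Mars1, Eprs, Iars, Yars, Dars, Aldh18a1 and Lars were also lower, with differences between -1.16 and -0.30. These values share their libraries with the KO comparisons: the KO nILC2 libraries that were higher for Psat1, Shmt2 and Mars1 are the ones set against KO iILC2 here. By library, Shmt1 had 12.8, 10.8, 9.68 and 10.98 TPM in KO iILC2, against 14.6, 40.1, 26.8 and 27.6 TPM in KO nILC2, and Asns 13.4, 10.8, 9.78 and 11.6 TPM in KO iILC2, against 28.8, 23.7, 26.9 and 16.6 TPM in KO nILC2. Neither gene overlapped between KO iILC2 and KO nILC2. With the replicate number as a block 14 were lower, Cars added at -0.37. Without replicate 3 of KO nILC2 5 genes were higher in iILC2. Left out one at a time, 7 libraries ended the call of Lars in this comparison, 5 those of Aldh18a1 and Iars, 3 that of Slc1a5 and 2 that of Yars.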

How the data were processed

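RNA was measured by Smart-seq2 in 24 culture libraries and 16 libraries of nILC2 and iILC2, 4 per group, grouped by their titles and labels. The authors deposited TPM values for each gene, in 1 table per experiment. The submitters' processing notes name the build mm10 and, without roles, RSEM 1.3.3, STAR 2.7.5c and cutadapt 2.10. How the authors filtered genes is not given in the sources used here, and TPM keeps no depth, so no counting error could be given. Levels in the 2 tables were not compared. The chromatin samples, 14 of 54, were not used here, and 1 gene of a pathway list and 1 promoter stretch are not reported here.

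A separate model per table was run in limma 3.58.1 under R 4.3.3, using lmFit and a trended eBayes, with log2(TPM + 1) as the response and a mean for every group, for genes at 1 TPM or more in at least 4 libraries (10548 in culture, 10069 in nILC2 and iILC2). All 38 and 36 members passed. The p-values of 14 comparisons received Benjamini-Hochberg adjustment across every gene tested, with a call at an adjusted p under 0.05. The fit was tested on simulated data first. Coordinates and promoter sequences are those of RefSeq, GRCm38.p6, in which all 38 symbols were matched.

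The members and all gene lists were chosen with earlier results of these data known. Values per library are given for the members with the 2 largest called differences of their role in the IL-25, KO and CTRL iILC2 comparisons and for members going against their role, and 3 genes at most are named per pathway list and direction. Shmt1 and Asns in KO iILC2 and nILC2, and means of members not called, were added after their values were seen. Same-numbered libraries of KO nILC2 and KO iILC2 deviated together (r = 0.10 to 0.23 over genes), and every other pair of groups had at least 1 number at or under 0.1. These values do not settle a pairing, since r was 0.24 for replicate 1 of KO nILC2 and CTRL iILC2, which differ in genotype. The labels state no pairing, and the main fit used none. Alternatives were another pseudocount, 2 other filters, 2 other scalings, fits of the compared groups alone, a replicate block, leaving out each library, and a Y-linked term.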

Additional observations from a re-analysis of the deposited data

Results flagged for a closer look

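In 19 of 372 groups of 4 libraries, 1 library of a member stood far from the other 3, and chance alone flags about 1 in 20 groups. In KO nILC2 it was Pycr1 in replicate 1 at 1.81 TPM (others 4.15 to 4.55 TPM) and Slc38a2 in replicate 1 at 20.3 TPM (others 24.6 to 24.9 TPM). Also in KO nILC2 it was Qars in replicate 2 at 188 TPM (others 138 to 142 TPM). In CTRL nILC2 it was Phgdh in replicate 4 at 139.8 TPM (others 191 to 200.02 TPM) and Sesn2 in replicate 1 at 9.72 TPM (others 7.56 to 7.88 TPM). Also in CTRL nILC2 it was Vars in replicate 1 at 68.4 TPM (others 123 to 132 TPM). In CTRL iILC2 it was Psph in replicate 4 at 46.6 TPM (others 52.4 to 53.1 TPM) and Lars in replicate 1 at 27.3 TPM (others 24.4 to 24.7 TPM). Also in CTRL iILC2 it was Wars in replicate 2 at 93.2 TPM (others 85.3 to 86.6 TPM). At 4 h without IL-25 it was Dars in replicate 4 at 152 TPM (others 161 to 163 TPM) and Sars in replicate 2 at 202 TPM (others 184 to 187 TPM). At 48 h without IL-25 it was Phgdh in replicate 2 at 100.4 TPM (others 85.5 to 88.01 TPM) and Slc1a5 in replicate 3 at 91.5 TPM (others 69.4 to 73.1 TPM). Also at 48 h without IL-25 it was Slc38a2 in replicate 2 at 11.3 TPM (others 13.9 to 14.3 TPM) and Mars1 in replicate 3 at 50.1 TPM (others 38.5 to 40.3 TPM). At 72 h with IL-25 it was Atf4 in replicate 4 at 133 TPM (others 144 to 145 TPM) and Vars in replicate 4 at 38.4 TPM (others 57.9 to 59.95 TPM). At 72 h without IL-25 it was Ddit3 in replicate 2 at 35.7 TPM (others 25.7 to 27.2 TPM) and Wars in replicate 2 at 69.7 TPM (others 45.5 to 47.1 TPM).

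The difference with IL-25 changed between 4 h and 48 h for 19 members, by a test of the change itself in limma with adjusted p between 8e-12 and 0.039. It grew, in log2 units, for Pycr1 (1.84), Asns (1.77), Phgdh (1.59), Shmt2 (0.89), Cars (0.77), Mars1 (0.60), Aldh18a1 (0.55) and Atf4 (0.50). Smaller growth was seen for Yars (0.49), Psat1 (0.46), Psph (0.41), Nars (0.41), Gars (0.41), Rars (0.35) and Hars (0.29). It moved down for Ddit3 (-1.44), Sesn2 (-1.28), Slc3a2 (-0.44) and Slc1a5 (-0.41). The difference with IL-25 changed between 48 h and 72 h for 12 members, by a test of the change itself in limma with adjusted p between 4.5e-05 and 0.045. It grew, in log2 units, for Trib3 (2.02), Ddit3 (0.96) and Slc3a2 (0.39). It moved down for Shmt1 (-1.16), Mthfd1 (-1.11), Yars (-0.58), Psat1 (-0.58), Eprs (-0.52), Shmt2 (-0.48), Kars (-0.45), Phgdh (-0.36) and Hars (-0.34). The call of Rars between 4 h and 48 h was lost under median-of-ratios scaling (0.31) and without any 1 of 8 libraries (0.27 to 0.36), and that of Psph under quantile normalization (0.26). Between 48 h and 72 h the calls of Phgdh (-0.23 and -0.18) and Hars (-0.20 and -0.16) were lost under median-of-ratios and quantile scaling, that of Eprs under quantile normalization (-0.33), and that of Ddit3 when those groups were fitted alone or without 1 of 11 libraries (0.60 to 0.98).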

How the results depend on the processing

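Pseudocount, filter, scaling, fit and libraries were varied one at a time over the member counts, the counts of all genes and each member's difference. The calls that reversed were Psat1 (0.12) and Hars (0.083) between 4 h and 48 h with IL-25 under median-of-ratios scaling, where neither was called. That scaling also left 1 member lower with IL-25 at 72 h. Between 48 h and 72 h without IL-25 it called 1 member lower and quantile normalization 2, while genes called in all numbered 26 with a pseudocount of 0.1 TPM, 86 after quantile normalization and 1 when fitted alone, against 40. For KO nILC2 0 members were higher when fitted alone and 1 with the Y-linked term, which was chosen after seeing the data. All genes called there, 155, became 82 with a pseudocount of 0.1 TPM, 270 by median of ratios, 5 when fitted alone and 87 with the Y-linked term. The replicate block gave 317, with 4 members higher instead of 3 (Gars added), 8 genes for the difference of KO effects instead of 0, and no lost member call in any comparison. That difference called 1 gene after quantile normalization and 5 with the Y-linked term. After quantile normalization 6 members were lower in CTRL iILC2. Leaving out each library in turn gave 1 to 2 members higher between 4 h and 48 h without IL-25, and 11 to 49 genes between 48 h and 72 h without it. For KO nILC2 it gave 0 to 12 members higher and 23 to 1006 genes, of which 1006 without KO replicate 1. It gave 0 to 3 members lower and 0 to 132 genes for the difference of KO effects, 2 to 5 members higher in KO iILC2 and 2 to 7 lower in CTRL iILC2. The cause of these moves was not tested. Over all comparisons, single members lost 2 calls and gained 1 with the other pseudocount, lost 7 and gained 21 by median of ratios, lost 11 and gained 21 after quantile normalization, and gained 5 with the block. Depth is unknown, so small differences of genes at few TPM, Pycr1, Slc7a5, Trib3 and Atf5 among them, cannot be set against counting error.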
